A study of Mus musculus with 7 samples.

Results

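Serotonin receptor mRNAs were examined in hippocampal synaptoneurosomes, a fraction of pinched-off nerve endings with attached postsynaptic pieces, from wild-type C57Bl/6J female mice. The receptors are the 10 genes Htr1a, Htr1b, Htr1d, Htr2a, Htr2c, Htr3a, Htr4, Htr5a, Htr6 and Htr7, listed by symbol and matched through their Ensembl identifiers. All 10 were found among the 22248 genes of the deposited table. There were 4 libraries after sub-chronic AM6545 (replicates B, D, E and F) and 3 after vehicle (replicates B, D and E). AM6545 blocks CB1, a cannabinoid receptor, and enters the brain poorly. The dose, duration, age of the mice and number of mice per library are not given in the sources used here. Nothing states that the replicates came from separate animals, so p-values measure only the spread between these libraries. The series title places the treatment beside cognitive performance and hippocampal synaptic plasticity, and the question here is whether receptor mRNAs differed between the treatments.

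Serotonin reaches the hippocampus through axons of neurons whose cell bodies lie in the raphe nuclei of the brainstem. Its receptors sort by what they couple to. Htr1 and Htr5 family members act through Gi/o proteins and dampen cyclic AMP, Htr2 family members act through Gq and phospholipase C, and Htr4, Htr6 and Htr7 act through Gs and raise cyclic AMP. Htr3a encodes a subunit of an ion channel. In the hippocampus, Htr1a is best known from pyramidal and granule neurons, Htr3a from a set of interneurons, and Htr2c is also abundant in the choroid plexus, the secretory tissue of the ventricles.

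For 3 receptors the transcripts differ by short stretches that alter the protein, and the sequences are shown because the transcript results below turn on them. They are mature-transcript sequence from GENCODE release M21 on GRCm38, read 5′ to 3′. The Htr2c segment (chrX:147169676-147169770, plus strand, exonic and coding) is present in Htr2c-201 and absent from Htr2c-207. Its 95 bases are not a multiple of 3, and the annotated coding sequence is 459 codons with it and 172 without it. The capitals mark the 5 codons within which this mRNA is known to be edited from adenosine to inosine; no editing was measured here.
Htr2c optional segment: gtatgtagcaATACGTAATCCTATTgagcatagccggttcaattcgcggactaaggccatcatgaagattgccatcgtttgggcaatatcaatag

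The Htr3a insert (chr9:48899991-48900008, minus strand, coding) of 18 bases is carried by Htr3a-201 and missing from Htr3a-202, which gives 489 and 483 codons. The capitals mark the insert, with 20 coding bases on either side.
Htr3a long-form insert: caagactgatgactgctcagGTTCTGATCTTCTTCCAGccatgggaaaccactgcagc

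Htr7-205 keeps 5 bases (chr19:35969304-35969308, minus strand) at the end of an exon, which are spliced out of Htr7-202. They are in capitals. Read in triplets from the first printed base, they supply the stop codon TAA, and the annotated coding sequence is 435 codons in place of 448. Htr7-204 carries a further exon (chr19:36041555-36041612, minus strand) and is annotated as a target of nonsense-mediated decay. That exon is shown up to the stop codon it introduces, in capitals.
Htr7-205 retained bases: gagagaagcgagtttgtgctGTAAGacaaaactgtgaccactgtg
Htr7-204 extra exon: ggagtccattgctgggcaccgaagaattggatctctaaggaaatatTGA

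Library totals lay between 19174600 and 25894700 estimated counts, of which the 10 receptors together took 1604 to 2769. Vehicle replicate B stood apart with 9.83% of counts from mitochondrially encoded genes, against 5.07% to 6.66% in the other 6 libraries. Markers of the labelled tissue were present. Slc17a7, a vesicular glutamate transporter of excitatory neurons, was at 1377 to 1611 CPM, and all 4 CA1, 4 CA3 and 4 dentate granule markers were detected. CPM, the count scaled to a common library total after TMM normalisation, is used below to compare libraries. Gene positions are given on GRCm38. Choroid plexus RNA was present in unequal amounts, as its 15 markers summed to 1117 to 5369 CPM after AM6545 and to 3434 to 5296 CPM after vehicle. Sums of excitatory neuron and CA1 markers separated the groups, by a narrow margin for excitatory neurons. The 5 excitatory neuron markers summed to 3763 to 4081 CPM in AM6545 and 4112 to 4832 CPM in vehicle, with 4 of the 5 lower in AM6545. The difference was largest for Nrgn, at 1116 to 1599 CPM and 1564 to 2066 CPM (log2 fold change -0.37). The others had -0.27 (Neurod2), -0.09 (Camk2a), -0.05 (Slc17a7) and 0.15 (Neurod6). The 4 CA1 markers summed to 470 to 495 CPM and 542 to 617 CPM, with 3 of the 4 lower. Pou3f1 had the largest log2 fold change of them, at -0.55 (72.7 to 104 CPM and 126 to 140 CPM). Wfs1 had -0.27, Fibcd1 -0.15 and Man1a 0.07. Sums for serotonergic neurons and for interneurons that carry Htr3a or lie near them, given further below, also separated the groups. Sums of CA3, dentate granule and general interneuron markers overlapped, at 731 to 791 CPM in AM6545 and 728 to 814 CPM in vehicle for CA3. Dentate granule sums were 227 to 281 CPM and 247 to 306 CPM, and interneuron sums 824 to 926 CPM and 745 to 876 CPM. Of the CA3 markers 3 of 4 were higher in AM6545, as were 3 of 4 interneuron and 2 of 4 dentate granule markers. Microglia sums overlapped (595 to 615 CPM in AM6545, 610 to 838 CPM in vehicle), with 5 of 6 markers lower. Of the 5 medial habenula markers 4 were lower, but their sum came mostly from Nr4a2 (59.6 to 85.2 CPM over all libraries). The part of these markers in the receptor values was not tested. In bulk samples, fewer cells of a type and less RNA per cell cannot be told apart.

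To order the receptors by level, transcript counts were divided by transcript length (TPM, the per-length counterpart of CPM). Over all 7 libraries Htr3a was first with 15.8 ± 2.01 TPM (SD, n = 7). Htr1a followed with 10.7 ± 2.15 TPM and Htr7 with 9.999 ± 2.03 TPM. Htr3a exceeded Htr1a in 7 of 7 libraries, whereas Htr1a exceeded Htr7 in 5 of 7, so those neighbours had no steady order.

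A middle group held Htr2c (5.79 ± 1.35 TPM), Htr4 (4.30 ± 1.03 TPM), Htr6 (3.43 ± 0.694 TPM), Htr2a (2.71 ± 0.553 TPM) and Htr1b (2.08 ± 0.457 TPM). From Htr2c down to Htr5a at 1.30 ± 0.257 TPM, each gene exceeded the next in 6 of 7 libraries and neighbouring ranges overlapped. Htr7 and Htr2c were separated without overlap, by a ratio of means of 1.73. Htr1d was last, at 0.287 ± 0.146 TPM, 4.52-fold below Htr5a and again without overlap. On the CPM scale the receptors spanned the 1.24th percentile (Htr1d) to the 55.0th percentile (Htr1a) of the genes tested.

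**Figure D1:**
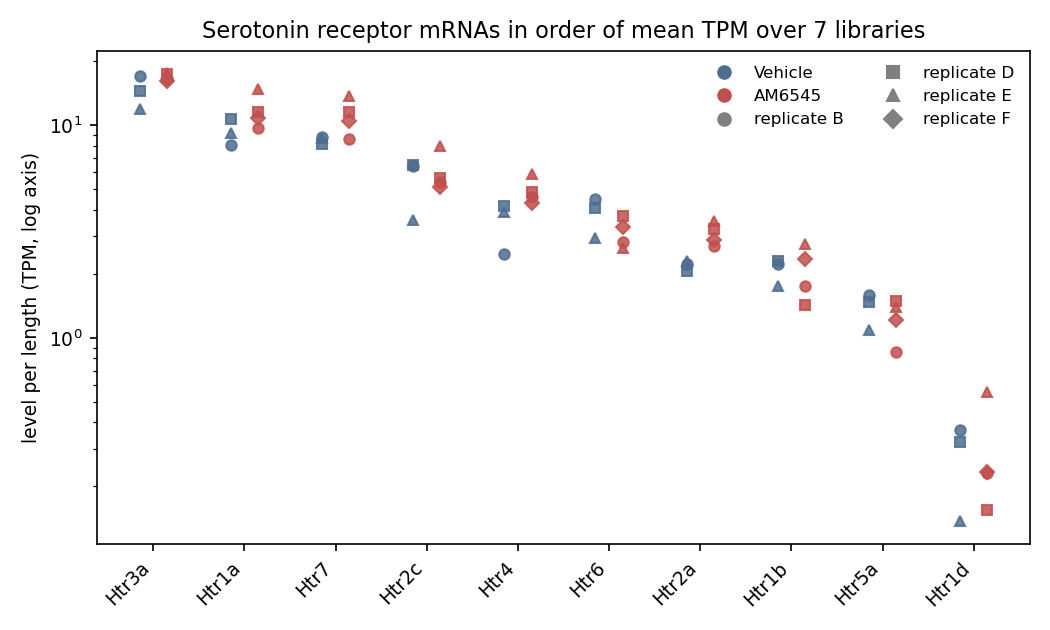
Level per length (TPM, log axis) of the 10 receptor mRNAs in order of their mean over 7 libraries, with 1 point per library, colour for group and symbol for replicate. Htr3a lies highest at 11.9 to 17.5 TPM and Htr1d lowest at 0.137 to 0.559 TPM; the points of neighbouring genes overlap except between Htr7 and Htr2c and between Htr5a and Htr1d.

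As a share of the summed TPM of the 10 receptors, the single ion channel gene Htr3a took 28.2% ± 3.01 in vehicle (SD, n = 3) and 28.2% ± 2.59 in AM6545 (SD, n = 4). The 3 Gs-coupled receptors took 31.3% ± 2.52 and 31.6% ± 1.21. The 4 Gi/o-coupled receptors took 25.6% ± 2.41 and 25.2% ± 1.86, with most of it from Htr1a. The Gq-coupled pair took 14.9% ± 1.73 and 15.0% ± 0.957. For each class the group means differed by less than the SD within either group.

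For the comparison of AM6545 with vehicle, all 10 receptors passed the filter on low counts, and 0 of the 10 had an adjusted p-value under 0.05 in edgeR's quasi-likelihood test (Benjamini-Hochberg over 14654 genes, of which 0.00682% passed). With limma-voom 1 of 10 passed, Htr2a, beside 2.69% of all genes. With DESeq2 0 passed, beside 2.46% of the genes to which it gave an adjusted p, and 5 of the 10, Htr2a among them, had none. At an unadjusted edgeR p under 0.05 there was 1 receptor, also Htr2a, where 14.6% of all genes tested had such a p. Their direction was even, with 5 of 10 higher in AM6545 beside 51.4% of all genes. Log2 fold changes of AM6545 over vehicle ran from -0.32 for Htr6 to 0.37 for Htr2a. The median was 0.04, and 0.01 over all genes tested. Groups did not overlap for 1 receptor of 10, higher in AM6545, beside 13.8% of all genes in either direction and 6.63% in that one.

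**Figure D2:**
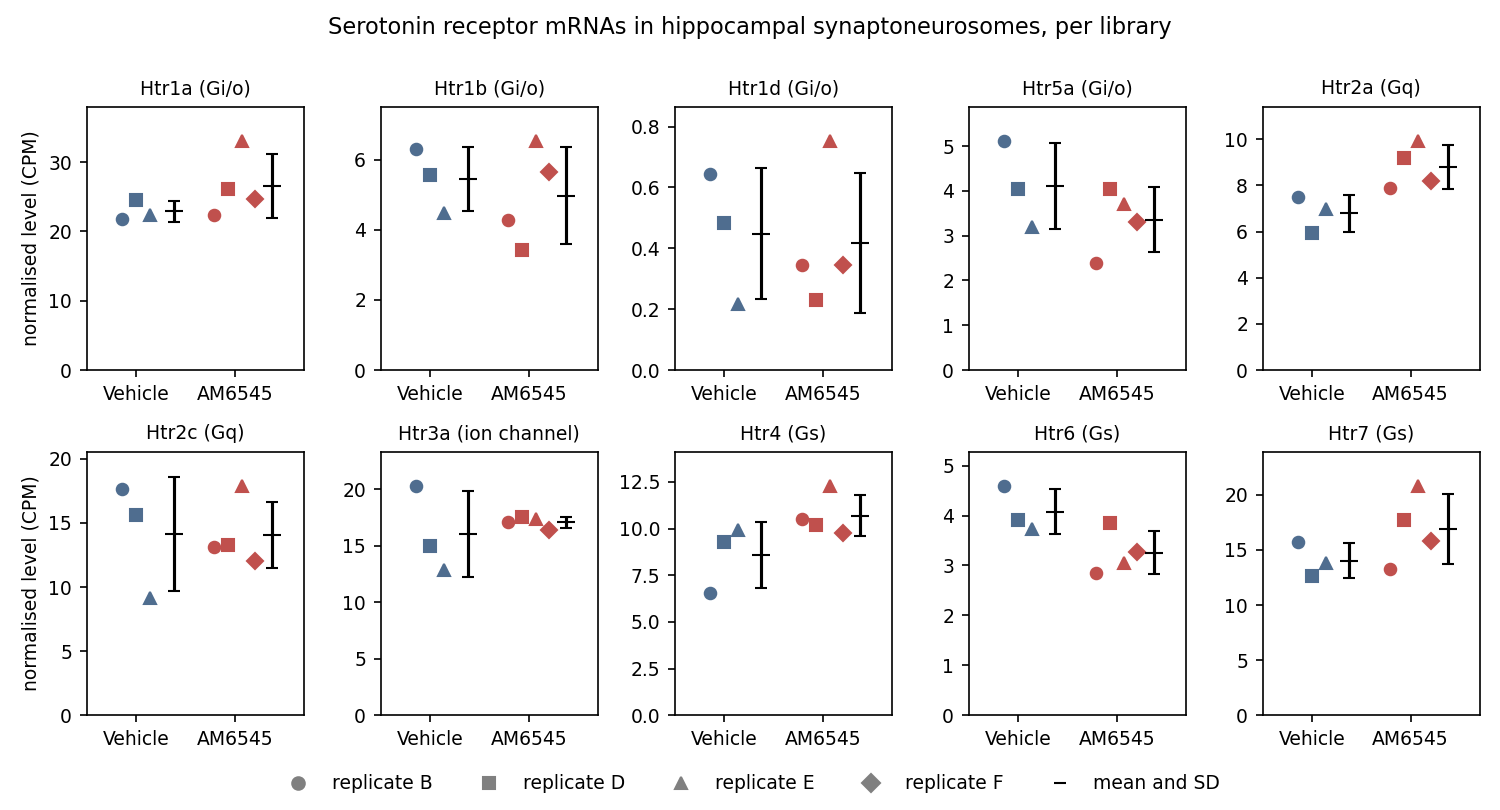
Normalised level (CPM, linear axes from 0) of each receptor in 3 vehicle libraries (blue) and 4 AM6545 libraries (red), with symbols for replicates and black marks for mean and SD. Only Htr2a shows groups without overlap, at 5.92 to 7.49 CPM in vehicle and 7.87 to 9.92 CPM in AM6545.

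Among the Gi/o-coupled receptors, Htr1a (ENSMUSG00000021721.6, chr13:105443639-105448122, plus strand), the main inhibitory serotonin receptor of principal neurons and an autoreceptor in the raphe, is transcribed from a single exon. It was at 21.7, 24.5 and 22.4 CPM in vehicle replicates B, D and E. In AM6545 replicates B, D, E and F it was at 22.4, 26.2, 33.1 and 24.6 CPM. Replicate E was the high library, and replicate B fell within the vehicle range. AM6545 over vehicle gave a log2 fold change of 0.21 (SE 0.13, 95% interval -0.08 to 0.50, edgeR adjusted p 0.467), and 0.09 without AM6545 replicate E.

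Htr1b (ENSMUSG00000049511.6, chr9:81628291-81633828, minus strand), a receptor on axon terminals that restrains transmitter release, was at 6.32, 5.56 and 4.49 CPM in vehicle replicates B, D and E. Its AM6545 values were 4.28, 3.43, 6.54 and 5.64 CPM for replicates B, D, E and F. The lowest and the highest library both belonged to AM6545. Its log2 fold change was -0.14 (SE 0.22, 95% interval -0.61 to 0.33, edgeR adjusted p 0.772), and -0.02 without vehicle replicate B. Leaving out AM6545 replicate D turned its sign (0.00046), and leaving out AM6545 replicate E gave -0.30. The Htr1b values are uncertain because exons of D430036J16Rik on the opposite strand cover 18.0% of its exonic bases.

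Htr1d (ENSMUSG00000070687.12, chr4:136423524-136444398, plus strand), a close relative of Htr1b with a similar role, had only 4 to 16 counts per library. That is 0.64, 0.48 and 0.22 CPM in vehicle replicates B, D and E, and 0.35, 0.23, 0.75 and 0.35 CPM in AM6545 replicates B, D, E and F. At this depth its interval was wide, with a log2 fold change of -0.18 (95% interval -1.23 to 0.88, edgeR adjusted p 0.883). Its sign turned without AM6545 replicate D (0.03) or vehicle replicate B (0.17).

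Htr5a (ENSMUSG00000039106.7, chr5:27842149-27855088, plus strand), a neuronal receptor of the Htr5 family, was at 5.11, 4.03 and 3.19 CPM in vehicle replicates B, D and E. It was at 2.38, 4.04, 3.71 and 3.30 CPM in AM6545 replicates B, D, E and F. Only replicate B of AM6545 lay below every vehicle library. For Htr5a the log2 fold change was -0.30 (SE 0.22, 95% interval -0.77 to 0.17, edgeR adjusted p 0.528), -0.17 without AM6545 replicate B and -0.11 without vehicle replicate B.

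Of the Gq-coupled receptors, Htr2a (ENSMUSG00000034997.6, chr14:74640840-74709494, plus strand), the target of classical hallucinogens, had the largest difference. It was at 7.49, 5.92 and 6.98 CPM in vehicle replicates B, D and E. In AM6545 replicates B, D, E and F it was at 7.87, 9.19, 9.92 and 8.17 CPM. Each of the 4 AM6545 libraries lay above each of the 3 vehicle libraries, by a narrow margin between both replicates B. This gave a log2 fold change of 0.37 (SE 0.14, 95% interval 0.06 to 0.68, unadjusted p 0.0228), a fold of 1.29.

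This did not pass adjustment over all genes (edgeR adjusted p 0.280). In limma-voom with quality weights, where 2.69% of genes passed, Htr2a had a log2 fold change of 0.51 and an adjusted p of 0.0460. That was the lowest adjusted p it was given over the 17 alternatives, of which DESeq2 gave it none (DESeq2 unadjusted p 0.0288). Its log2 fold change over the 17 ran from 0.24 to 0.51. Leaving out single libraries gave 0.28 to 0.45, the highest without vehicle replicate B. The unadjusted edgeR p rose to 0.106 without vehicle replicate D, and to 0.0585 and 0.0621 without AM6545 replicates D and E. With the replicate letter as a block it was 0.0561. After correction for GC content and length it was 0.105, and 0.166 with the block added. In the other edgeR runs it stayed below 0.05.

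Htr2c (ENSMUSG00000041380.14, chrX:146962513-147197277, plus strand), a receptor involved in appetite and mood, did not separate the groups in either direction. Its vehicle values were 17.6, 15.6 and 9.14 CPM for replicates B, D and E, and its AM6545 values were 13.1, 13.3, 17.9 and 12.0 CPM for replicates B, D, E and F. The vehicle libraries alone spanned nearly the whole range. Its log2 fold change was -0.02 (SE 0.21, 95% interval -0.47 to 0.44, edgeR adjusted p 0.978), with 0.17 without vehicle replicate B and -0.24 without vehicle replicate E.

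Because choroid plexus carries Htr2c, its markers were set beside it. In AM6545 replicates B, D, E and F the summed choroid plexus level was 3538, 2857, 5369 and 1117 CPM, and in vehicle replicates B, D and E it was 3434, 5296 and 3728 CPM. AM6545 replicate E was highest and replicate F lowest of the AM6545 libraries for both Htr2c and these markers. In vehicle the order differed, as replicate E had the least Htr2c but not the least choroid plexus RNA. Of the 15 markers 15 were lower in AM6545, beside 7125 of 14654 genes tested. Their median log2 fold change was -0.26, and none was at 0 throughout. No marker had an edgeR adjusted p below 0.491, and as markers of 1 tissue they are not 15 separate observations. Ttr, the transthyretin gene that defines the tissue, ranged from 369 to 1758 CPM in AM6545 and from 1425 to 2573 CPM in vehicle. The part of choroid plexus RNA in the Htr2c values was not tested.

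Htr3a (ENSMUSG00000032269.9, chr9:48899213-48911099, minus strand) encodes the subunit without which this serotonin-gated channel does not form. It was at 20.3, 15.0 and 12.9 CPM in vehicle replicates B, D and E, and at 17.1, 17.5, 17.4 and 16.4 CPM in AM6545 replicates B, D, E and F. All 4 AM6545 libraries fell inside the vehicle range. For Htr3a the log2 fold change was 0.09 (SE 0.14, 95% interval -0.22 to 0.40, edgeR adjusted p 0.794), which became -0.04 without vehicle replicate E and 0.30 without vehicle replicate B. Markers of interneurons that carry Htr3a or lie near them (Cck, Vip, Reln, Ndnf, Cxcl14 and Calb2) summed to 512 to 656 CPM in vehicle and 453 to 494 CPM in AM6545. The sum came mostly from Cck, at 319 to 419 CPM in vehicle and 240 to 297 CPM in AM6545. Cck was the only one of the 6 markers whose groups did not overlap. Of the 6 markers, 2 were higher (Ndnf 0.17 and Calb2 0.14) and 4 lower. The part of these markers in the Htr3a values was not tested.

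Of the Gs-coupled receptors, Htr4 (ENSMUSG00000026322.10, chr18:62324204-62496577, plus strand), which promotes excitability of hippocampal neurons, was at 6.56, 9.27 and 9.90 CPM in vehicle replicates B, D and E. It was at 10.5, 10.2, 12.3 and 9.78 CPM in AM6545 replicates B, D, E and F. Of the AM6545 libraries 3 lay above all vehicle libraries, and vehicle replicate B was the low one. Its log2 fold change was 0.32 (SE 0.16, 95% interval -0.02 to 0.66, edgeR adjusted p 0.370), and 0.16 without vehicle replicate B.

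Htr7 (ENSMUSG00000024798.16, chr19:35958734-36057507, minus strand), found on pyramidal neurons and interneurons, was at 15.7, 12.6 and 13.8 CPM in vehicle replicates B, D and E. It was at 13.3, 17.7, 20.8 and 15.8 CPM in AM6545 replicates B, D, E and F. Replicate E was again highest, and replicate B fell within the vehicle range. For Htr7 the log2 fold change was 0.27 (SE 0.15, 95% interval -0.06 to 0.60, edgeR adjusted p 0.431), and 0.15 without AM6545 replicate E.

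Htr6 (ENSMUSG00000028747.11, chr4:139061108-139075570, minus strand), a receptor concentrated in neuronal primary cilia, lay on the other side. It was at 4.59, 3.91 and 3.73 CPM in vehicle replicates B, D and E. It was at 2.85, 3.85, 3.06 and 3.26 CPM in AM6545 replicates B, D, E and F. Of the AM6545 libraries 3 lay below all vehicle libraries, and replicate D did not. Its log2 fold change was -0.32 (SE 0.17, 95% interval -0.70 to 0.05, edgeR adjusted p 0.404).

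Base composition went with these differences at both ends of their range. Htr2a, the poorest in GC at 41.3%, had the highest fold change, and Htr6, the richest at 63.3%, had the lowest. Not every receptor followed this order. Htr2c, at 41.9% GC, had -0.02, Htr5a, at 45.5%, had -0.30, and Htr3a, at 53.1%, had 0.09. Over the 10 receptors, which share the same 7 libraries, fold change and GC content had a Spearman's rho of -0.53, given as a description. Over 14633 genes rho was -0.42. Estimates made after removing each library's own trend in GC and transcript length were 0.24 for Htr2a, 0.18 for Htr4, 0.15 for Htr7 and 0.12 for Htr1a. For Htr6 it was -0.11, and for Htr5a, Htr1b and Htr2c it was -0.40, -0.29 and -0.21. The Htr2a, Htr4, Htr7, Htr1a and Htr6 values lay nearer 0 than before and the Htr5a, Htr1b and Htr2c values farther from it, with Htr1d (-0.29) and Htr3a (0.12) also farther, so 5 receptors moved each way. Of the receptors 0 passed (edgeR adjusted p 0.747 to 0.900). The part of base composition in each value was not tested separately.

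**Figure D3:**
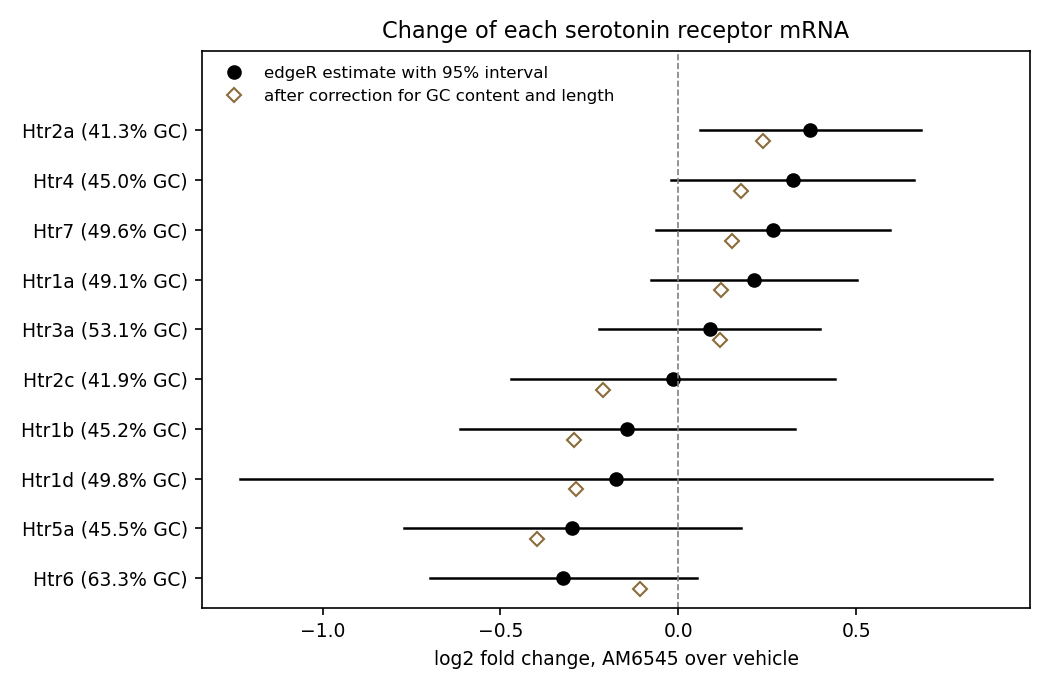
Log2 fold change of AM6545 over vehicle for each receptor, with its GC content beside the name. Black points and lines are edgeR estimates with 95% intervals, and open diamonds are estimates after correction for GC content and length; only the interval of Htr2a (0.06 to 0.68) lies off 0.

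The 10 genes have 30 transcripts in the deposited transcript table, of which 5 had 0 counts in every library and 16 passed the filter. Of these 16, 0 had an adjusted p under 0.05 in edgeR's test over 33962 transcripts, of which 0.0177% passed. The single one with an unadjusted p under 0.05, beside 8.39% of all transcripts (3.89% higher and 4.5% lower), was Htr2a-201 (unadjusted p 0.0460, adjusted p 0.585), the only listed transcript of its gene. Of the 16, 7 were higher and 9 lower in AM6545, and 50.3% of all transcripts were higher. Htr2a-201 was also the only one of the 16 whose groups did not overlap, beside 10.8% of all transcripts. Htr1a, Htr1b, Htr2a and Htr5a each drew all their counts from 1 transcript.

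Transcript shares are estimates of how reads divide among transcripts that are nearly alike. Htr2c-201 and Htr2c-207 share 4651 bases, and only 96 and 3 bases are particular to each, chiefly the 95-base segment printed above. Htr2c-207, without the segment, took 80.1%, 27.3% and 55.0% of Htr2c counts in vehicle replicates B, D and E. In AM6545 replicates B, D, E and F it took 41.0%, 53.7%, 15.9% and 25.3%. Vehicle replicate B was the high library and AM6545 replicate E the low one.

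The group means of this share were 54.1% ± 26.4 in vehicle (SD, n = 3) and 34.0% ± 16.7 in AM6545 (SD, n = 4), and the ranges overlapped. By level, Htr2c-207 had a log2 fold change of -0.76 (SE 0.53, edgeR adjusted p 0.740) and Htr2c-201 one of 0.62 (SE 0.50, adjusted p 0.781). The SD among vehicle libraries alone exceeded the difference between the group means.

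For Htr3a the form without the insert printed above prevailed in every library. The longer form has 96 bases that the other lacks, the insert among them, and 1986 in common with it. Htr3a-202 took 94.9%, 79.5% and 90.5% in vehicle replicates B, D and E, and 91.3%, 92.0%, 99.2% and 87.1% in AM6545 replicates B, D, E and F. The longer Htr3a-201 took the rest, from 0.85% in AM6545 replicate E to 20.5% in vehicle replicate D. Its log2 fold change was -0.46 (SE 0.80, edgeR adjusted p 0.909).

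Htr7 was divided among several forms. Htr7-202 took 49.0% ± 15.4 of counts in vehicle (SD, n = 3) and 52.7% ± 11.9 in AM6545 (SD, n = 4). Htr7-205, with the 5 retained bases, took 24.3%, 14.5% and 17.2% in vehicle replicates B, D and E and 25.5%, 23.8%, 21.3% and 33.0% in AM6545 replicates B, D, E and F. Vehicle replicate B lay among the AM6545 values. Its log2 fold change was 0.69 (SE 0.31, unadjusted p 0.0579, edgeR adjusted p 0.611). Htr7-204, with the exon that introduces a stop, took 37.8%, 29.2% and 10.6% in vehicle and 11.9%, 26.1%, 7.57% and 21.6% in AM6545, in the same order of replicates.

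**Figure D4:**
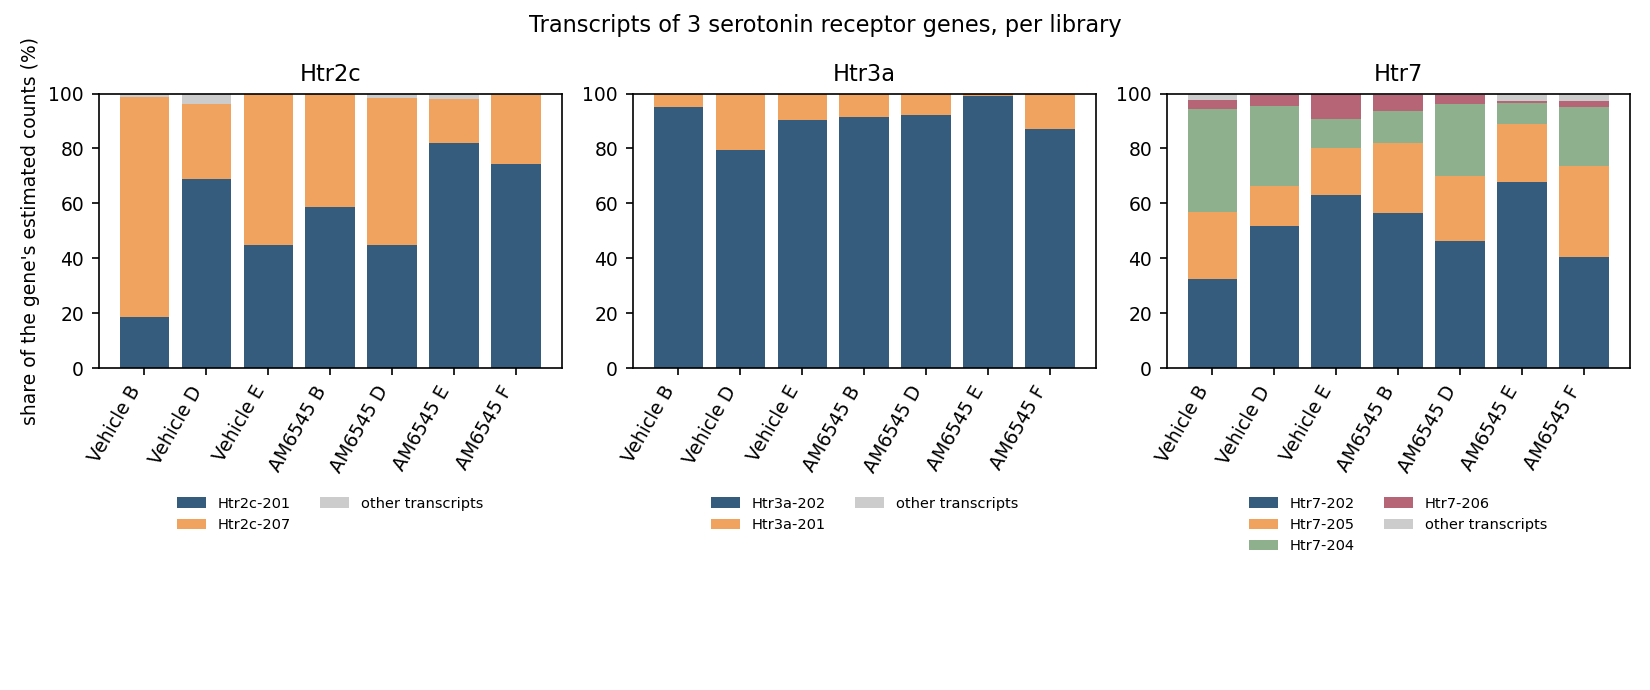
Share of each gene's estimated counts (%) taken by its transcripts in each library, for Htr2c, Htr3a and Htr7; each bar sums to 100% and grey holds all other transcripts. Htr2c-207 runs from 15.9% to 80.1% across libraries, while Htr3a-202 holds 79.5% or more in each.

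The 4 remaining serotonin receptor genes of the mouse were read as a comparison. Htr5b, a rodent receptor, reached 13.7 TPM on average over the 7 libraries, above 9 of the 10 listed receptors. It was at 14.7 ± 0.978 CPM in vehicle (SD, n = 3) and 13.4 ± 1.03 CPM in AM6545 (SD, n = 4), with a log2 fold change of -0.13 (edgeR adjusted p 0.591), and -0.08 without vehicle replicate B or AM6545 replicate E. Htr1f was at 2.86, 2.30 and 2.22 CPM in vehicle and at 1.77, 1.64, 2.07 and 2.03 CPM in AM6545, in order of replicate letter and without overlap. Its log2 fold change was -0.39 (SE 0.20, edgeR adjusted p 0.391), -0.61 after the GC and length correction and -0.26 without vehicle replicate B. Htr2b and Htr3b, the partner subunit of the Htr3a channel, fell below the filter with 12 and 9 counts in all libraries together. Where a library had 0 counts, up to 0.114 to 0.162 CPM is allowed.

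Of the 10 listed genes that make, carry or break down serotonin, 7 were tested, 5 higher and 2 lower in AM6545, and 0 passed (edgeR, smallest adjusted p 0.264), with a median log2 fold change of 0.23. At an unadjusted p under 0.05, 2 were higher, beside 5.86% of all genes in that direction. Maoa, which encodes monoamine oxidase A, was at 18.0, 23.4 and 26.2 CPM in vehicle and at 27.3, 29.1, 28.2 and 29.8 CPM in AM6545, in order of replicate letter. The groups did not overlap, and its log2 fold change was 0.34 (SE 0.13, edgeR adjusted p 0.264), or 0.13 after the GC and length correction and 0.21 without vehicle replicate B. Its level is uncertain, as 12.5% of its transcript recurs in transcripts of other genes.

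Slc18a2, the vesicular monoamine transporter, had a log2 fold change of 0.39 (SE 0.17, edgeR adjusted p 0.320), or 0.18 after that correction and 0.25 without vehicle replicate E. Exons on the opposite strand overlap 2.12% of it. Slc6a4, the serotonin transporter that defines serotonergic neurons, was at 0.00 to 0.38 CPM and the serotonergic transcription factor Fev at 0.00 to 0.11 CPM. Tph2, the neuronal enzyme of serotonin synthesis, was at 1.41 to 3.33 CPM. The 4 serotonergic neuron markers summed to 7.12 to 7.66 CPM in vehicle and 8.48 to 10.8 CPM in AM6545, most of it from Slc18a2 in every library.

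Partners and regulators of the receptors were split. Of 9 tested, 4 were higher and 5 lower, 0 passed (edgeR), and 3 had an unadjusted p under 0.05, all lower, beside 8.7% of all genes in that direction. Adarb1, an enzyme that edits Htr2c transcripts, was at 37.1, 35.9 and 29.3 CPM in vehicle and at 25.5, 27.3, 24.2 and 26.2 CPM in AM6545, in order of replicate letter. Every AM6545 library lay below every vehicle library. The log2 fold change was -0.40 (SE 0.11, edgeR adjusted p 0.199), and -0.32 after the GC and length correction. Its adjusted p fell below 0.05 in 3 of 17 alternatives, at 0.0485 with DESeq2, 0.0375 with limma-voom and 0.0247 without vehicle replicate E. Yif1b, a trafficking protein that binds the Htr1a receptor, had -0.43 (SE 0.11, edgeR adjusted p 0.199), which was -0.10 after the correction. It passed with DESeq2 (adjusted p 0.0348). Yif1b is uncertain because 26.5% of its exonic bases lie opposite another gene.

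Downstream effectors showed small differences of mixed sign. Of the 8 Gi/o and potassium channel genes, 2 were higher and 6 lower, with a median of -0.03. The 2 higher ones were Gnai3 at 0.40 (SE 0.11, edgeR adjusted p 0.199) and Gnai1 at 0.33 (SE 0.11, adjusted p 0.235), both inhibitory G protein subunits and both without overlap between groups. Both had an unadjusted p under 0.05, beside 5.86% of all genes in that direction, and 6.63% of all genes were higher without overlap. Of the 8 Gq and phospholipase C genes, 6 were higher and 2 lower, with a median of 0.08. The 2 with the smallest p were Itpr1, the receptor for inositol trisphosphate, at -0.23 (-0.09 after the GC and length correction) and Gna11, a Gq family subunit, at -0.20 (edgeR adjusted p 0.354 and 0.388). Without vehicle replicate B these were -0.14 and -0.10.

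Of the 8 Gs and adenylyl cyclase genes, 1 was higher and 7 lower, with a median of -0.06, and 3 of the 7 had an unadjusted p under 0.05, beside 8.7% of all genes in that direction. Adcy1, a calcium-stimulated adenylyl cyclase, had -0.43 (SE 0.11, edgeR adjusted p 0.199) without overlap between groups. Adcy5, another cyclase, had -0.39 (SE 0.12, adjusted p 0.231) with overlap, and -0.26 without vehicle replicate B. After the GC and length correction the values were 0.18 for Gnai3, 0.12 for Gnai1, -0.18 for Adcy1 and -0.15 for Adcy5. In these 3 effector lists 0 genes passed an adjusted p of 0.05 in edgeR. Of the genes named here, Adcy1 passed with DESeq2 (adjusted p 0.0279) and limma-voom (0.0305), and Gnai3 with DESeq2 (0.0409). Without vehicle replicate E, when 6.38% of all genes passed, so did Adcy1, Adcy5 and Gnai3 here and Maoa, Adarb1 and Yif1b of the lists above, while 0 receptors did.

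The genes whose log2 CPM followed a receptor most closely across the 7 libraries were taken from 9627 genes with a mean of at least 10 CPM, for the 3 receptors of highest CPM. For Htr1a they were Tapt1, Syt16 and Adgrb3 (Pearson's r 0.99, 0.98 and 0.98). For Htr7 they were Polr2m, Acvr2a and Cpeb2 (r 0.98, 0.96 and 0.96), and for Htr3a Med1, Nit2 and Pxdc1 (r 0.96, 0.95 and 0.95). Each r rests on 7 libraries that share their depth and composition, and is given as a description.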

How the data were processed

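Messenger RNA was measured in 7 libraries. RNA extraction used an RNeasy column kit and library construction a SMARTer low-input kit, per the labels. The authors deposited estimated counts per gene and per transcript, not scaled to a common total; Salmon 1.5.2 and mm10 are named in the submitters' processing notes. Neither the annotation release nor whether strand was used is given in the sources used here. Names, lengths and GC content came from GENCODE M21 (22194 of 22248 gene and 101575 of 102392 transcript identifiers matched, versions ignored), so lengths may differ from those used for counting.

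Counts were rounded and tested with edgeR 4.0.16 (R 4.3.3, limma 3.58.1): TMM, filterByExpr, robust quasi-likelihood fit, no covariates, Benjamini-Hochberg over all features. Standard errors are the absolute log2 fold change over the square root of F. CPM uses TMM effective library sizes; TPM uses transcript counts over M21 lengths. Alternatives included DESeq2 1.42.0, limma-voom, other scalings and filters, transcripts summed per gene, a lowess correction for GC content and length (span 0.3), the replicate letter as a block and leaving out each library. Near-identical copies were sought with BLAST 2.17.0 (95% identity over 100 bases). The code was tested on simulated data.

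The rule for named genes was all 10 receptors, from each pathway list the genes past the threshold or else the 2 with the smallest p, and 3 genes most like each of the 3 receptors of highest CPM. The receptors, lists and settings were chosen with earlier results of these data known. No 2 libraries held identical values (Pearson's r across genes 0.979 to 0.995).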

Additional observations from a re-analysis of the deposited data

Results flagged for a closer look

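Within the AM6545 group 38 values were compared across the 4 libraries (the CPM of the 10 receptors, of the pathway genes named by rule and of the tested receptor transcripts), and 1 library lay far from the other 3 once, where chance gives about 1.90. Gnai1, an inhibitory G protein subunit, reached 274 CPM in AM6545 replicate E. Its 3 fellow libraries held 251 to 254 CPM, and vehicle held 174 to 224 CPM. None of the 10 receptors stood out in this way. Groups of 3 were not compared.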

How the results depend on the processing

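Of 168 receptor estimates under 17 alternatives, 1 passed an adjusted p of 0.05 (Htr2a with limma-voom, where 1 receptor passed in place of 0) and 11 had the opposite sign to the log2 fold change reported. Htr2c turned to 0.0193 with total counts and 0.0833 with the replicate block, and without 1 library ran from -0.243 to 0.171. Leaving out 1 library took Htr1d from -0.459 to 0.168, Htr1b from -0.299 to 0.00046 and Htr3a from -0.0440 to 0.295. The other 6 receptors kept their direction in every alternative run. Htr1d fell below the filter without AM6545 replicate E and when a mean of 50 counts was required. The number of genes called was 1, and 250 with DESeq2, 394 with limma-voom, 2 when a mean of 50 counts was required, 0 after the GC and length correction and 0 to 944 without 1 library (944 without vehicle replicate E, 0 without vehicle replicate B or AM6545 replicate E). Transcripts called numbered 6, and 390 with DESeq2, 27 without a filter, 0 with the replicate block and 1 to 14 without 1 library (14 without vehicle replicate E). The cause was not tested. Same-lettered libraries did not deviate together (r -0.26, -0.13 and -0.18 for B, D and E), so the letters were not taken to pair them; the replicate block called 1 gene and 0 receptors. Depth limits Htr1d most, and the division of reads among like transcripts limits all transcript shares.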

Other observations

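Several receptors were highest or lowest in the same libraries. AM6545 replicate E was the highest AM6545 library for 7 of 10 receptors (Htr1a, Htr1b, Htr1d, Htr2a, Htr2c, Htr4 and Htr7) and the lowest for 0. Vehicle replicate B was the highest vehicle library for 8 of 10 and vehicle replicate E the lowest for 6. How often these libraries were highest or lowest over all genes tested was not counted, so the pattern is not shown to be particular to the receptors. The 10 receptors summed to 125 CPM in AM6545 replicate E, 86.7 CPM in vehicle replicate E and 94.1 to 106 CPM in the other 5 libraries.

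The receptors differed in how steady they were. Over all 7 libraries the coefficient of variation of CPM was lowest for Htr3a (13.8%) and Htr1a (15.6%) and highest for Htr1d (47.6%), whose few counts limit it. Within AM6545 alone Htr3a was at 17.1 ± 0.482 CPM (SD, n = 4), against 16.0 ± 3.82 CPM in vehicle (SD, n = 3); the difference in spread was not tested.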
